A study of Mus musculus with 6 samples.

Results

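The circadian clock genes of the mouse retina were examined in Myrf-kd and wild-type (WT) animals, 30 genes chosen by symbol for their known part in the clock loop, its outputs, its kinases and the rhythmic physiology of the retina. All 30 symbols were found once each among the 55450 genes of the deposited table. Of these, 26 had a mean of at least 1 FPKM (fragments scaled to gene length and library depth) over the 6 libraries and were tested, and the other 4 lay below that level. The data are 3 libraries labelled Myrf-kd, which the series' design text gives as Myrf +/−, and 3 libraries labelled WT. All came from retina of C57BL/6 mice at 8 weeks of age, with no treatment named, and the labels give neither the altered part of Myrf nor the time of day or the light at which the eyes were taken. They do not state either whether each library is 1 animal, so p-values measure only how these samples vary, and some of that may be technical.

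The molecular clock is a feedback loop of transcription. BMAL1, encoded by Arntl, pairs with CLOCK or NPAS2 on E-box sequences and raises the transcription of Per, Cry, Nr1d1, Nr1d2, Dbp and Ciart, whose products act back on the pair or on its genes. REV-ERB proteins, from Nr1d1 and Nr1d2, repress Arntl and Nfil3 through ROR elements that RORA activates, and DBP, TEF and HLF compete with the repressor NFIL3 on D-box sequences. The retina runs such a clock of its own, which is known to gate dopamine and melatonin signalling, photoreceptor cyclic AMP and light sensitivity. The level of rhythmic transcripts among these genes can depend on the hour of collection.

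None of the 26 tested clock genes passed the comparison of Myrf-kd with WT. The test was the quasi-likelihood test of edgeR with a threshold of 0.05 after Benjamini-Hochberg adjustment over all genes, and the lowest edgeR adjusted p among the clock genes was 0.666. Over all 13673 genes tested, 6 passed, or 0.0439%, with 0.0293% higher and 0.0146% lower in Myrf-kd. DESeq2, limma-voom and limma on log2(FPKM + 1) also called 0 clock genes. In either direction they had 7, 6 and 6 at an unadjusted p under 0.05, where 7.89%, 7.5% and 7.44% of all genes were. At an unadjusted p under 0.05, edgeR had 6 clock genes, all lower in Myrf-kd: Arntl, Ciart, Cry2, Klf9, Usp2 and Per1. That is 23.1% of the 26, where 3.72% of all genes tested were lower at that level. No clock gene was higher at that level, against 3.76% of all genes. These shares, and those that follow, were not compared by a test. The clock genes were chosen with earlier results of these data known and act in a shared loop, so they need not vary independently.

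The groups did not overlap in 5 clock genes. Arntl, Ciart, Cry2 and Klf9 were lower in every Myrf-kd library than in any WT library, which is 15.4% of the 26 against 7.5% of all genes tested. Drd4 was higher in every Myrf-kd library, 3.85% of the 26 against 7.13% of all genes. An exact permutation test of 3 libraries against 3 cannot give a two-sided p below 0.1. The median log2 fold change of the 26 genes was -0.03, with 16 lower and 10 higher estimates, and over all genes tested it was 0.00, with 49% lower. In 15 of the 26 the fitted Myrf-kd level lay between 90% and 110% of WT.

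The loop is known to act on its targets through E-boxes and ROR elements. For this reason the promoters of the 5 genes whose groups did not overlap are shown. They are RefSeq sequences of GRCm38.p6, from 250 bases before to 50 bases after the gene start, written 5′ to 3′ on the gene's strand. Capitals mark a match to the E-box CACGTG, the E′-box CACGTT, the ROR elements TAGGTCA or TGGGTCA, the D-box cores TTATGTA or TTACGTA, or the cyclic AMP response core TGACGTC, each on either strand (CACGTG reads the same on both).
Ciart, chr3:95882179-95882478, minus strand: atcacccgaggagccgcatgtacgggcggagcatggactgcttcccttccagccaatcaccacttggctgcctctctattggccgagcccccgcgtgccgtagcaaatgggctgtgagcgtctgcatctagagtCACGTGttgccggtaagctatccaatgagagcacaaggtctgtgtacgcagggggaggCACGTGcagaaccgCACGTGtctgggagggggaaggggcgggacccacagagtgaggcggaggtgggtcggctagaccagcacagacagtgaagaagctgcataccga
Arntl, chr7:113207261-113207560, plus strand: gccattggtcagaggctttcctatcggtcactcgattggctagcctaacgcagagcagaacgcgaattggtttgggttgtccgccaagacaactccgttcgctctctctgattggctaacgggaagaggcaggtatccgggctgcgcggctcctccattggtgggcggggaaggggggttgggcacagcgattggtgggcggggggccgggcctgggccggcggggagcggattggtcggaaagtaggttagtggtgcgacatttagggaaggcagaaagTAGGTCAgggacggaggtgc
Cry2, chr2:92434020-92434319, minus strand: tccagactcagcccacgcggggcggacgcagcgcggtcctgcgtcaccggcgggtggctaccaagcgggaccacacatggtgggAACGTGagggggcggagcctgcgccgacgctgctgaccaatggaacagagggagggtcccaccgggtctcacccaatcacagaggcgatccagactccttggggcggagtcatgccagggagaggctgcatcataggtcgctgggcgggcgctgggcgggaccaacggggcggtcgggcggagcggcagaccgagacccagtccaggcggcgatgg
Klf9, chr19:23140976-23141275, plus strand: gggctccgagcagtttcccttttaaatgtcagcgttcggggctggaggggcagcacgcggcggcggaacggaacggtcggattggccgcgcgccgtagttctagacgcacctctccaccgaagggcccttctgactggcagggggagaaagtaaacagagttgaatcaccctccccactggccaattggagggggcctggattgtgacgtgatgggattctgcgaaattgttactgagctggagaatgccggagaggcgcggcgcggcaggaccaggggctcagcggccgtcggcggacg
Drd4, chr7:141291768-141292067, plus strand: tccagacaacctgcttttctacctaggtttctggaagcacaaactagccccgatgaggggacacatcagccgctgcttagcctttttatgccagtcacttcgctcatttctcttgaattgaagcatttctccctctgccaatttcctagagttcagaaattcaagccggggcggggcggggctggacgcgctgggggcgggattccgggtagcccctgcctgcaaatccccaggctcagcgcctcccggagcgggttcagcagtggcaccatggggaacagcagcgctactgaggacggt

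Ciart held 3 E-boxes, whose first bases lay 116, 58 and 44 bases before the gene start. Arntl held TAGGTCA 30 bases after the start of the window's gene model, and its other RefSeq window, which overlaps this one, held no match. Cry2 held 1 E′-box on the opposite strand, and Klf9 and Drd4 held none of the letters searched. Of all 32851 RefSeq windows, 7.15% held CACGTG, 4.68% CACGTT, 2.61% TAGGTCA, 3.98% TGGGTCA, 2.63% TTATGTA, 0.475% TTACGTA and 3.21% TGACGTC. Windows were found for 24 of the 30 clock genes, not for Aanat, Bhlhe40, Btrc, Csnk1d, Per2 or Sik1. Among these 24, CACGTG lay in Adcy1, Bhlhe41, Ciart, Cry1, Per1 and Tef, CACGTT in Cry1, Cry2 and Nr1d1, and TAGGTCA in Arntl and Nfil3. TTATGTA lay in Per3 and Timeless, and TGACGTC in Hlf, Per1 and Usp2. No other window of the 24 held any of the letters.

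Levels below are in CPM, the estimated counts of a gene scaled to the library's normalized total, unless FPKM is named. The counts behind them summed to between 50695091 units in WT 2 and 70298511 units in WT 3, at about 4 units per sequenced fragment. Each tested clock gene had at least 166 fragments in every library. Myrf itself was at 0.279, 0.382 and 0.351 FPKM in Myrf-kd 1, 2 and 3 and at 0.359, 0.397 and 0.463 FPKM in WT 1, 2 and 3, so the groups overlapped. Its fitted level in Myrf-kd was 81.9% of WT (95% interval 59.6% to 113%, edgeR adjusted p = 0.732). By Xist, which was at 1450 CPM in library Myrf-kd 3, at 1240 CPM in library WT 3 and at most 8.16 CPM in the others, 1 library of each group was female. Retinal markers were present, with 8 of 8 rod genes, 5 of 5 cone genes, 5 of 5 bipolar genes and 4 of 4 Mueller glia genes above the 1 FPKM level.

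Markers of other tissues differed between groups or libraries. The summed cornea and surface epithelium list was at 2.1 to 7.73 CPM in Myrf-kd retinas and 16.3 to 25.2 CPM in WT, with lower estimates in 3 of 3 tested genes of 8 and Krt5 at 0 in Myrf-kd 1. The retinal pigment epithelium list was at 116 to 167 CPM in Myrf-kd retinas and 154 to 205 CPM in WT, with lower estimates in 5 of 5 tested genes of 7. The lens list was at 15.9 to 91.1 CPM in Myrf-kd, highest in Myrf-kd 3, and 35.7 to 42.5 CPM in WT, and Cryba1, Crybb2 and Crygs were at 0 in Myrf-kd 1 and 2. Myrf-kd 3 was the highest or the lowest of the 6 libraries in 50.8% of all genes, more than any other. The part of these in the clock values was not tested, and in bulk RNA fewer cells of a type and less RNA per cell cannot be told apart.

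Of the positive limb, Arntl, which encodes the obligate partner BMAL1, was lower in every Myrf-kd library. Arntl (ENSMUSG00000055116, chromosome 7, 113207465 to 113314126, plus strand, GRCm38) was at 158, 149 and 129 CPM in the Myrf-kd libraries 1 to 3 and at 172, 175 and 177 CPM in the WT libraries 1 to 3. The Myrf-kd libraries were spread out with Myrf-kd 3 lowest, and the WT libraries lay close together above them. The means were 146 ± 14.7 CPM in Myrf-kd retinas and 174 ± 2.59 CPM in WT (SD, n = 3 each). The fitted Myrf-kd level was 83.4% of WT, 95% interval 73% to 95.4% (log2 fold change -0.26 ± 0.08 SE, edgeR adjusted p = 0.666). Without Myrf-kd 3 the log2 fold change was -0.18.

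Clock, which encodes the partner of BMAL1, overlapped between the groups. It was at 117, 106 and 94.5 CPM in Myrf-kd retinas and at 110, 99.6 and 112 CPM in WT, with a fitted level of 98.7% of WT (95% interval 84.8% to 115%). Npas2, whose product can stand in for CLOCK in the forebrain, lay below the tested level at 0.739 to 0.847 FPKM in the 6 libraries. Its counts were 58 to 78 fragments, and its log2 fold change in a fit without a filter was 0.03 ± 0.16 SE.

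**Figure D1:**
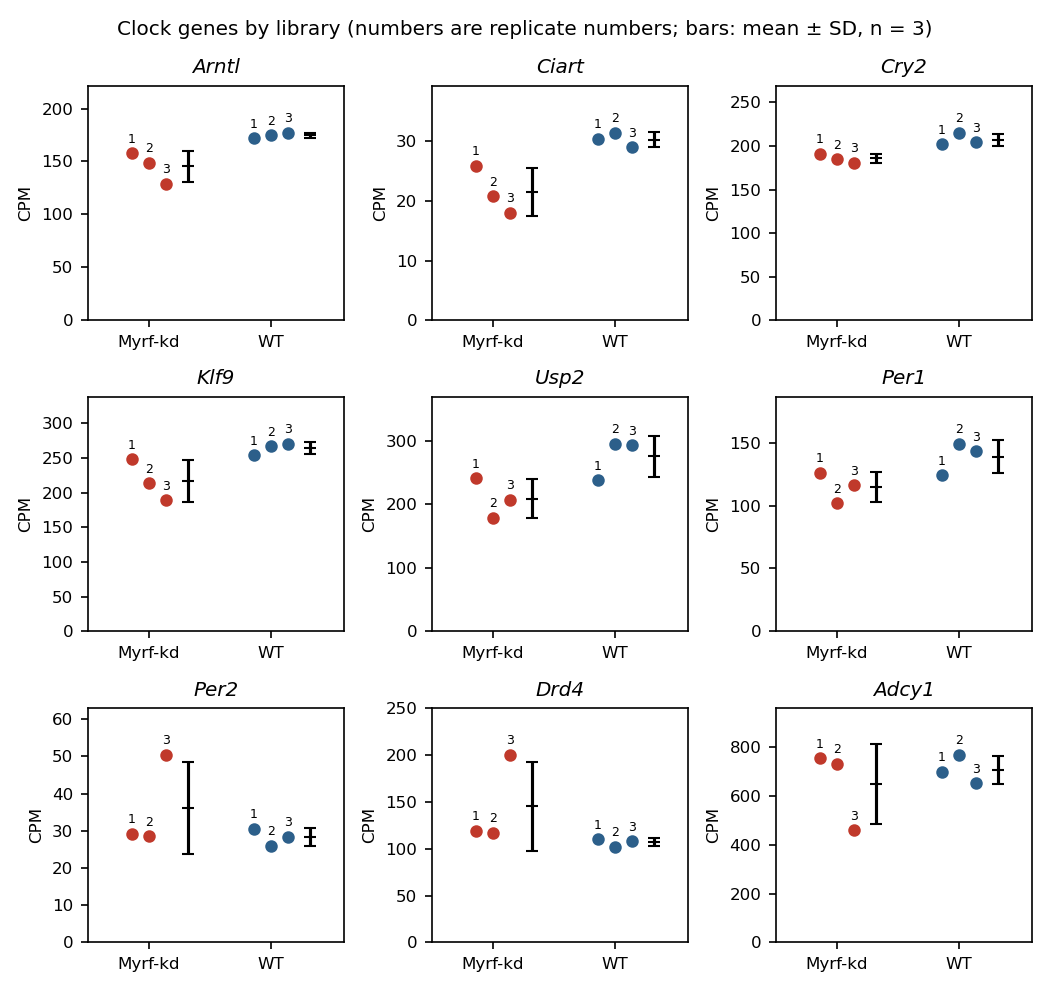
Level of 9 clock genes in CPM (linear axes from 0) in each Myrf-kd and WT library, with the replicate number above each point and the group mean ± SD (n = 3) as bars. Arntl, Ciart, Cry2 and Klf9 lay below WT in all 3 Myrf-kd libraries, Usp2 and Per1 overlapped through replicate 1, and Per2, Drd4 and Adcy1 differed mainly in Myrf-kd 3, where Drd4 was at 200 CPM.

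Of the negative limb, 8 of 9 genes were tested, with 4 lower and 4 higher estimates. Ciart, also called Chrono, a repressor of the CLOCK and BMAL1 pair, had the lowest ratio of all clock genes. Ciart (ENSMUSG00000038550, chromosome 3, 95878503 to 95882231, minus strand) was at 25.9, 20.8 and 18 CPM in the Myrf-kd libraries 1 to 3 and at 30.4, 31.4 and 29 CPM in the WT libraries 1 to 3. Myrf-kd 1 came nearest to WT and Myrf-kd 3 was again the lowest. The means were 21.5 ± 3.99 CPM in Myrf-kd retinas and 30.2 ± 1.22 CPM in WT (SD, n = 3 each), and the fitted level was 71.2% of WT (95% interval 56.4% to 90.1%). The log2 fold change was -0.49 ± 0.14 SE (edgeR adjusted p = 0.666), and -0.37 without Myrf-kd 3. A long noncoding gene on the other strand, C920021L13Rik, overlaps Ciart, and was at 3.48 to 5.87 CPM in Myrf-kd retinas and 3.78 to 5.19 CPM in WT, so the groups overlapped.

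The cryptochromes bind and silence the CLOCK and BMAL1 pair, and a difference between Cry1 and Cry2 was not tested. Cry2 (chromosome 2, 92403646 to 92434043, minus strand) was at 191, 185 and 181 CPM in Myrf-kd retinas and at 202, 215 and 204 CPM in WT. Its groups did not overlap, though the gap was small beside the level. The fitted Cry2 level was 89.7% of WT (95% interval 82% to 98.1%, log2 fold change -0.16 ± 0.05 SE, edgeR adjusted p = 0.666). The antisense gene D930015M05Rik, which lies within Cry2, was at 1.74 to 2.25 CPM in Myrf-kd retinas and 2.29 to 2.42 CPM in WT. Its groups did not overlap, but its log2 fold change was -0.20 ± 0.19 SE (edgeR adjusted p = 0.788). No source used here gives the strand of reads, so Cry2 reads counted for it cannot be told apart. Cry1 was at 61.1, 58.2 and 78.1 CPM in Myrf-kd retinas and at 65.9, 60 and 69.9 CPM in WT, with Myrf-kd 3 highest and a fitted level of 101% (95% interval 82.1% to 124%).

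The 3 period genes, whose products carry the cryptochromes into the nucleus, were all tested. Per1, known to respond fast to light and to glucocorticoids, was at 126, 102 and 116 CPM in Myrf-kd retinas and at 124, 149 and 143 CPM in WT. Myrf-kd 1 and WT 1 were alike in Per1, and the other Myrf-kd libraries lay below every WT library. Its fitted level was 82.6% of WT (95% interval 69.7% to 98%, edgeR adjusted p = 0.666).

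Per2 stood high in a single library. It was at 29.2, 28.6 and 50.4 CPM in the Myrf-kd libraries 1 to 3 and at 30.6, 26 and 28.4 CPM in the WT libraries 1 to 3. Only Myrf-kd 3 left the range of the others, so that the mean of 36.1 ± 12.5 CPM in Myrf-kd against 28.4 ± 2.31 CPM in WT (SD, n = 3 each) rested on it. The log2 fold change of Per2 was 0.35 ± 0.23 SE (edgeR adjusted p = 0.731), and 0.03 without Myrf-kd 3. Per3 was at 117, 119 and 152 CPM in Myrf-kd retinas and at 123, 120 and 129 CPM in WT, again with Myrf-kd 3 highest. The Per3 locus overlaps Camta1 on the same strand, which was at 133 to 157 CPM in Myrf-kd retinas and 153 to 163 CPM in WT.

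Bhlhe40 and Bhlhe41 encode DEC1 and DEC2, repressors that compete for the E-box. Bhlhe40 was at 55.4, 59.7 and 72.9 CPM in Myrf-kd retinas and at 57, 60.4 and 66.9 CPM in WT. Bhlhe41 was at 88.6, 95.3 and 120 CPM in Myrf-kd retinas and at 89.7, 108 and 108 CPM in WT. Both were highest in Myrf-kd 3 and lowest in Myrf-kd 1, with fitted levels of 102% (84% to 124%) and 99.7% (80.3% to 124%) of WT. Timeless, whose mammalian product is known mainly from replication forks, lay below the tested level, at 0.717 to 0.92 FPKM in Myrf-kd and 0.805 to 1.03 FPKM in WT.

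The 3 genes of the REV-ERB and ROR loop lay close to their WT level. Nr1d1, which encodes REV-ERB alpha, was the most abundant clock gene per length, at a mean of 55.4 FPKM. It was at 185, 191 and 219 CPM in Myrf-kd retinas and at 197, 195 and 203 CPM in WT, and its fitted level was 99.9% of WT 95% interval 88.3% to 113%. Nr1d2, which encodes REV-ERB beta, was at 256 to 285 CPM in Myrf-kd retinas and 263 to 301 CPM in WT, at 96.7% of WT (85.5% to 109%). Rora, which encodes the activator at the same elements, was at 248 to 275 CPM in Myrf-kd retinas and 252 to 292 CPM in WT, at 93.9% of WT (82.6% to 107%). Nr1d1 overlaps Thra on the opposite strand in a separate gene annotation. In the deposited coordinates Thra, 98740638 to 98765111, does not reach Nr1d1, 98767932 to 98775333. Thra was at 251 to 261 CPM in Myrf-kd retinas and 258 to 283 CPM in WT, and no source used here gives the strand of reads.

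The D-box factors had no common direction. Dbp, an output whose daily swing is among the widest in many tissues, was at 94.7, 96.1 and 115 CPM in Myrf-kd retinas and at 93.1, 85.5 and 119 CPM in WT. The female library was the highest of each group in Dbp, and the fitted level was 103% of WT (95% interval 81.7% to 129%). Tef varied more within groups than between them, at 322, 212 and 266 CPM in Myrf-kd retinas and at 328, 213 and 371 CPM in WT. Hlf was at 245, 259 and 216 CPM in Myrf-kd retinas and at 244, 178 and 262 CPM in WT.

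Nfil3, the repressor at D-boxes, was at 19.8, 18.3 and 16.5 CPM in Myrf-kd retinas and at 23.5, 22.1 and 19.7 CPM in WT. The groups touched only where Myrf-kd 1 met WT 3. The fitted Nfil3 level was 83.7% of WT (95% interval 69.6% to 101%, log2 fold change -0.26 ± 0.11 SE, edgeR adjusted p = 0.684). Arntl and Nfil3 are both known targets of the REV-ERB proteins, and both held TAGGTCA in the windows searched.

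**Figure D2:**
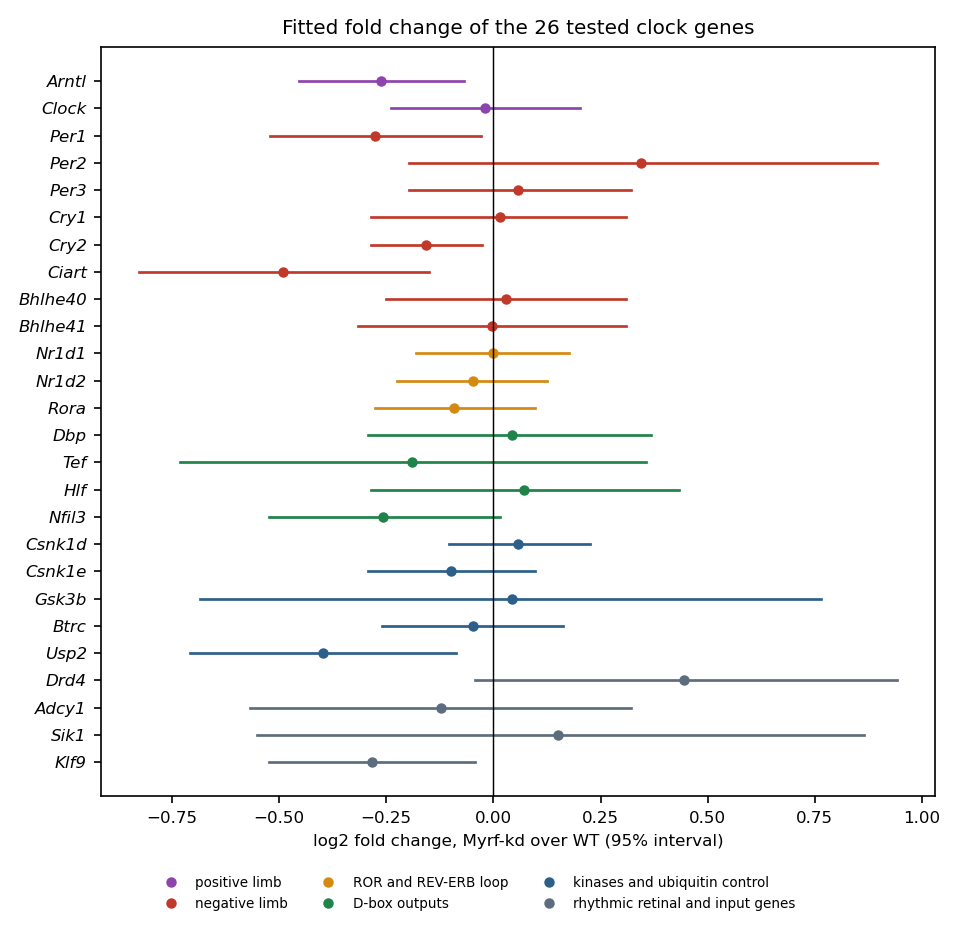
Fitted log2 fold change of Myrf-kd over WT (points) with its 95% interval (lines) for the 26 tested clock genes, coloured by role, from the fit over all genes. Ciart had the lowest estimate at -0.49 and Drd4 the highest at 0.45. The intervals of 6 genes lay below 0 before adjustment, where 3.72% of all genes tested were lower at an unadjusted p under 0.05. None of the 26 passed after adjustment.

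Genes that set the stability of clock proteins were mostly level. Csnk1d and Csnk1e encode the casein kinases that phosphorylate PER proteins. Csnk1d was at 136 to 156 CPM in Myrf-kd retinas and 135 to 146 CPM in WT, at 104% of WT (95% interval 93% to 117%). Csnk1e was at 67.3 to 79.2 CPM in Myrf-kd retinas and 78.7 to 83.5 CPM in WT, at 93.4% of WT (81.7% to 107%). Btrc, which encodes an F-box protein that marks phosphorylated PER for degradation, was at 214, 212 and 175 CPM in Myrf-kd retinas and at 198, 210 and 214 CPM in WT.

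Gsk3b, a kinase of several clock proteins, varied widely among the libraries. It was at 128, 86.3 and 94.4 CPM in Myrf-kd retinas and at 68.5, 151 and 80.9 CPM in WT, so both extremes were WT libraries. Its interval ran from 62.2% to 170% of WT, and a difference within that range was not detectable here. Fbxl21, an F-box gene for cryptochrome turnover, lay below the tested level at 0.461 to 0.618 FPKM in Myrf-kd and 0.47 to 0.609 FPKM in WT, with 36 to 55 fragments per library.

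Usp2, a ubiquitin protease gene with a strong daily rhythm in other mouse tissues, had the second lowest ratio. Usp2 (chromosome 9, 44067021 to 44095627, plus strand) was at 241, 179 and 207 CPM in Myrf-kd retinas and at 238, 295 and 293 CPM in WT. As in Per1, the replicates numbered 1 of both groups were alike and the other Myrf-kd libraries were lower than every WT library. The fitted level was 75.9% of WT (95% interval 61.2% to 94.1%, log2 fold change -0.40 ± 0.13 SE, edgeR adjusted p = 0.666).

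Of the rhythmic retinal genes, Drd4 had the highest estimate of all clock genes. It encodes the D4 dopamine receptor of photoreceptors, through which dopamine lowers cyclic AMP, and its transcript is known to peak at night in rodent retina. Drd4 (chromosome 7, 141292006 to 141296464, plus strand) was at 119, 117 and 200 CPM in the Myrf-kd libraries 1 to 3 and at 110, 102 and 108 CPM in the WT libraries 1 to 3. Myrf-kd 1 and 2 lay just above the WT libraries and Myrf-kd 3 far above. The means were 146 ± 47.3 CPM in Myrf-kd retinas and 107 ± 3.93 CPM in WT (SD, n = 3 each). The log2 fold change of Drd4 was 0.45 ± 0.21 SE (edgeR adjusted p = 0.685), and 0.15 without Myrf-kd 3.

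Adcy1, a calcium-stimulated adenylyl cyclase on which the daily rhythm of photoreceptor cyclic AMP is known to depend, was low in Myrf-kd 3. It was at 754, 732 and 460 CPM in the Myrf-kd libraries 1 to 3 and at 699, 768 and 651 CPM in the WT libraries 1 to 3. Myrf-kd 3 was far below the others, while Myrf-kd 1 and 2 lay within the WT range. The fitted level was 91.9% of WT (95% interval 67.5% to 125%).

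Aanat, the penultimate enzyme of melatonin synthesis, was close to absent at 0.068 to 0.172 FPKM in the 6 libraries, with 2 to 6 fragments each. Counts of this size allow no comparison. The melatonin genes Asmt, Mtnr1a and Mtnr1b, from the list of other clock genes, were also below the tested level, with Asmt at 0 in every library. C57BL/6 mice are known to make little melatonin.

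Klf9, a glucocorticoid-induced transcription factor gene with a daily rhythm, was the fourth gene that lay lower in every Myrf-kd library. Klf9 (chromosome 19, 23141226 to 23168134, plus strand) was at 248, 213 and 189 CPM in Myrf-kd retinas and at 254, 267 and 270 CPM in WT. Myrf-kd 1 stood close to WT and Myrf-kd 3 lowest. The fitted level was 82.2% of WT (95% interval 69.6% to 97.1%, log2 fold change -0.28 ± 0.10 SE, edgeR adjusted p = 0.666), and the log2 fold change was -0.19 without Myrf-kd 3. Of a list of 6 glucocorticoid-induced genes that includes Klf9 and Per1, 5 were tested, with 4 lower and 1 higher estimates and a median log2 fold change of -0.12, and 0 passed by edgeR. The summed level of the list was 883 to 942 CPM in Myrf-kd retinas and 957 to 978 CPM in WT, without overlap. Both the lower estimates and this sum include Klf9 and Per1, already given above, so they are no separate support. The sum without these genes was not examined. Apart from Klf9, no tested gene of the list was lower in every Myrf-kd library. Tsc22d3 was at 54.5, 54.2 and 35 CPM in Myrf-kd retinas and at 52.7, 50.2 and 52.7 CPM in WT, lower only in Myrf-kd 3. Sgk1 was higher in every Myrf-kd library (436 to 467 CPM) than in WT (416 to 432 CPM), and Fkbp5 overlapped, at 75.3 to 83.5 CPM in Myrf-kd retinas and 71.5 to 96.1 CPM in WT. Sik1, a kinase gene that damps light resetting of the mouse clock, was at 21.6, 15.1 and 17.6 CPM in Myrf-kd retinas and at 24.2, 13.4 and 11.2 CPM in WT.

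**Figure D3:**
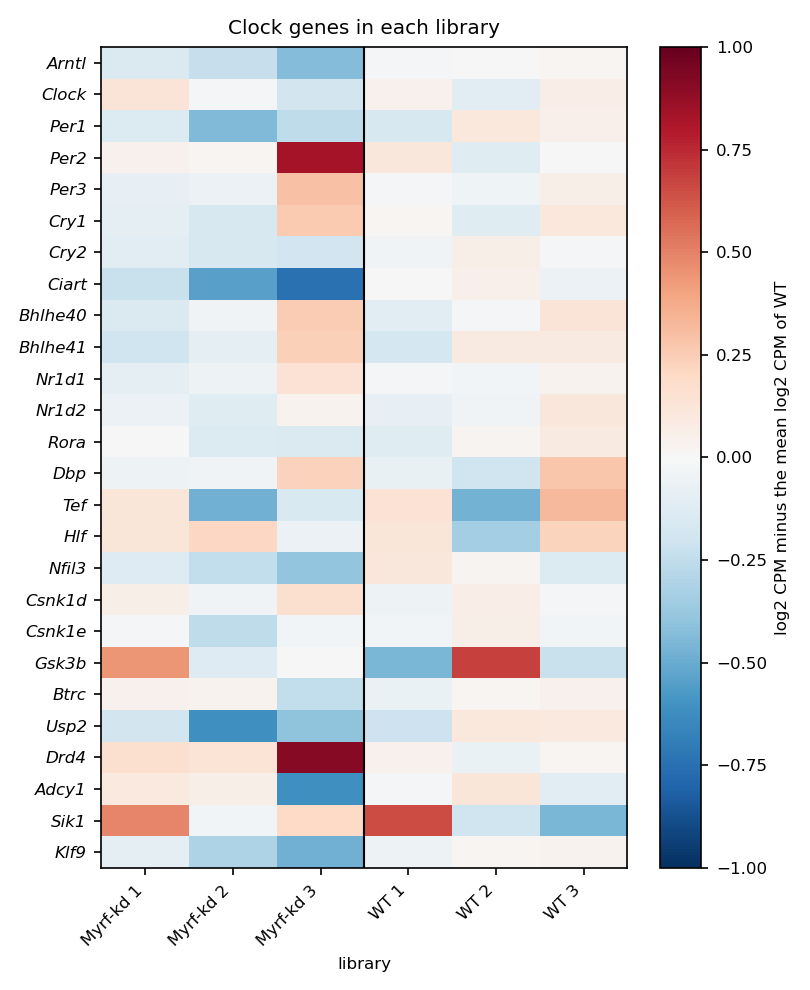
Level of the 26 tested clock genes in each library as log2 CPM minus the mean log2 CPM of the 3 WT libraries (colour, red above and blue below), with Myrf-kd left of the line and WT right of it. Myrf-kd 3 is deep red in Per2 and Drd4 and deep blue in Ciart and Adcy1, Gsk3b and Sik1 vary strongly among WT libraries, and Arntl, Ciart, Cry2 and Klf9 are blue in all 3 Myrf-kd libraries.

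Among the libraries, Myrf-kd 3 differed most in its clock genes, as it did over all genes. It was the highest of the 6 in 8 of the 26 and the lowest in 9, together 65.4%, against 50.8% of all genes in the fit. For Myrf-kd 1 and 2 the share was 23.1% each, against 23.8% and 32.8% of all genes. For WT 1, 2 and 3 it was 15.4%, 42.3% and 30.8%, against 23.7%, 36.7% and 32.2% of all genes. In 5 genes, Per2, Per3, Btrc, Drd4 and Adcy1, the gap from Myrf-kd 3 to the nearest other library exceeded the whole range of the other 5, which is 19.2% of the clock genes and 11.2% of all genes. One further gene, Csnk1e, had such a gap for Myrf-kd 2, and no clock gene had one for the other 4 libraries. WT 3, the other female library, was at 28.4 CPM for Per2, 108 CPM for Drd4 and 651 CPM for Adcy1. It thus lay among the other WT libraries in Per2 and Drd4, and was the lowest WT library in Adcy1. With 1 female library in each group, the part of sex in the values of Myrf-kd 3 was not tested.

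Ratios within a library do not depend on its depth, and in some of those computed Myrf-kd 3 stood apart, among them ratios of genes already extreme in it. The log2 ratio of the FPKM of Per2 to that of Arntl was -2.08, -2.02 and -1.0 in Myrf-kd 1, 2 and 3 and -2.13, -2.39 and -2.28 in WT 1, 2 and 3. That of Drd4 to Adcy1 was -0.77, -0.75 and 0.69 in Myrf-kd and -0.78, -1.02 and -0.71 in WT. The log2 ratio of Dbp to Arntl was 0.59, 0.69 and 1.16 in Myrf-kd and 0.45, 0.30 and 0.76 in WT, so it overlapped through WT 3. That of Ciart to Arntl was -0.88, -1.11 and -1.11 in Myrf-kd and -0.77, -0.75 and -0.88 in WT, and that of Per1 to Arntl 0.10, -0.14 and 0.26 in Myrf-kd and -0.05, 0.19 and 0.11 in WT, which did not set Myrf-kd 3 apart. In the first ratio Myrf-kd 1 and 2 were only slightly above WT, and in the second they were within the WT range. Hours of collection are not in the labels, and their part in these values was not tested.

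**Figure D4:**
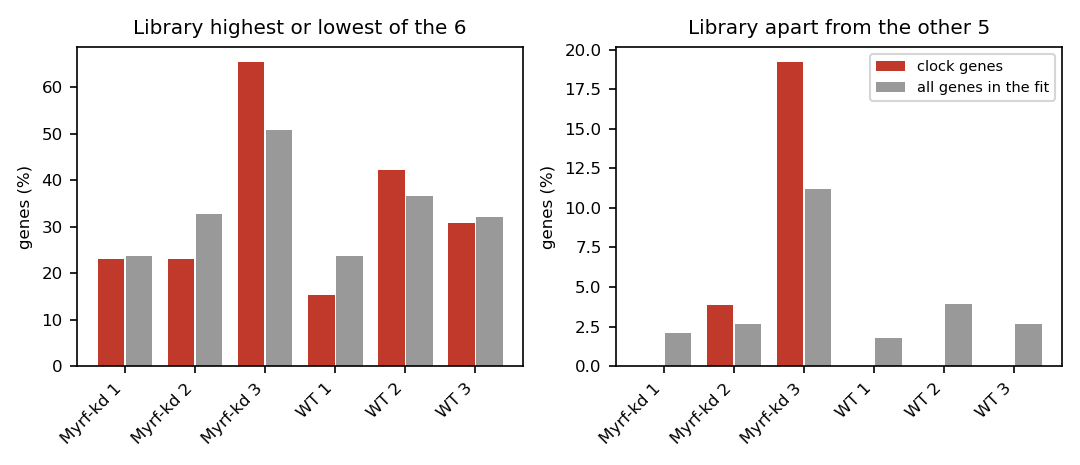
Percent of the 26 tested clock genes (red) and of all genes in the fit (grey) in which each library, Myrf-kd left and WT right, was the highest or lowest of the 6 (left panel) or lay farther from its nearest neighbour than the whole range of the other 5 (right panel). Myrf-kd 3 was extreme in 65.4% of clock genes and apart in 19.2%, against 50.8% and 11.2% of all genes.

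A further list of 55 genes with a known tie to the clock, its light input or retinal rhythms was examined in the same fit. All 55 were found, 47 were tested, and 0 passed by edgeR, by DESeq2 or by limma, with 1 gene of the 47 at an unadjusted p under 0.05 by edgeR, where 7.48% of all genes were. That gene was Usp7, a ubiquitin protease gene linked to cryptochrome stability, at 239 to 258 CPM in Myrf-kd retinas and 264 to 282 CPM in WT. The list had 27 lower and 20 higher estimates and its median log2 fold change was -0.02, and its groups did not overlap in 4 of the 47 genes on the lower side and 2 on the higher side, where 7.5% and 7.13% of all genes did not.

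By the smallest p the next genes were Sfpq, Csnk1a1, Fbxw11, Crtc2 and Ppargc1a. Sfpq, an RNA-binding partner of the PER complex, was at 182 to 215 CPM in Myrf-kd retinas and 211 to 234 CPM in WT. The casein kinase gene Csnk1a1 was at 243 to 260 CPM in Myrf-kd retinas and 260 to 275 CPM in WT, and Fbxw11, the paralog of Btrc, at 116 to 128 CPM in Myrf-kd retinas and 127 to 142 CPM in WT. Crtc2, a CREB coactivator gene, was at 48.4 to 53.7 CPM in Myrf-kd retinas and 53.7 to 57.1 CPM in WT, and Ppargc1a, a metabolic coactivator gene, at 54.3 to 66.1 CPM in Myrf-kd retinas and 60.7 to 75.6 CPM in WT. These 6 genes had an edgeR adjusted p of 0.666 to 0.707. Rorb, named here after its values were seen, was high in Myrf-kd 3 as Drd4 was, while its groups overlapped, at 283, 236 and 454 CPM in Myrf-kd retinas and at 235, 259 and 266 CPM in WT.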

How the data were processed

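Retinal RNA of 3 Myrf-kd and 3 WT libraries was analysed, with groups and replicate numbers from the sample titles. The authors deposited 1 table of 55450 genes with an FPKM and an estimated count per library. Per the file headers the columns are FPKM and counts. Every count is a whole number, and 4 units were read as about 1 fragment from the lowest values. The submitters' processing notes list Bowtie 0.12.2, HISAT2 2.0, StringTie 1.3.0 and GRCm38 without their roles. No source used here gives the strand setting.

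Myrf and all genes averaging 1 FPKM or more (13674 in all) entered the quasi-likelihood fit of edgeR 4.0.16, with TMM factors and genotype alone, and p-values were adjusted over all genes. The SE is the log2 fold change over the root of F, and intervals are 95%. Alternatives were other scalings, filters and pseudocounts, DESeq2 1.42.0, limma 3.58.1, a replicate block, sex and the omission of each library. Clock genes, marker lists and the list of 55 genes were chosen with earlier results of these data known. By rule, all clock genes, Myrf and the 6 genes of the list of 55 with the smallest p are named, with promoters of clock genes without overlap. Marker genes, overlapping genes and the other genes of that list (Sgk1, Fkbp5, Tsc22d3, Rorb, Cipc, Creb1, Asmt, Mtnr1a and Mtnr1b) were named outside that rule, after their values were seen. Replicates differed by more than sampling noise in every pair (chi-square over its degrees of freedom 18.3 or more). The summed level of the rod list is not reported here.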

Additional observations from a re-analysis of the deposited data

How the results depend on the processing

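The count of clock genes past the threshold was 0 in each of 18 alternatives, and so was that of the 55 other clock genes. At an unadjusted p under 0.05, the 6 clock genes (7.48%) became 8 when Myrf-kd 1 was left out (9.24%), 8 with sex as a covariate (7.36%) and 7 when WT 1 was left out (8.69%). They became 3 when Myrf-kd 2 (5.42%), WT 2 (4.06%) or WT 3 (3.84%) was left out, and 2 in the male libraries alone (3.89%), an alternative chosen after seeing the data; the percentages are of all genes at that level. Arntl and Ciart stayed at that level in 18 of 18 alternatives, Usp2 in 14, Cry2 and Klf9 in 13 each and Per1 in 12. Across these settings Arntl ranged over -0.32 to -0.17 in log2 fold change, Ciart over -0.64 to -0.37 and Drd4 over 0.15 to 0.58. The edgeR, limma and DESeq2 adjusted p lay between 0.372 and 0.923 for Arntl, 0.167 and 0.923 for Ciart and 0.502 and 0.923 for Drd4. The median log2 fold change of the clock genes ranged over -0.094 to -0.018 when 1 library was left out, and was -0.085 without Myrf-kd 3 and -0.087 without WT 1.

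The count of all genes past the threshold, 6, became 2 at a mean FPKM of at least 5, 53 with DESeq2, 22 in the male libraries and 9 to 16 without 1 library each (leaving out Myrf-kd 1, WT 1 or WT 2 gave 10, Myrf-kd 2 gave 9, WT 3 gave 13 and Myrf-kd 3 gave 16); the cause was not tested. With the replicate number as a block it was 0. In that fit 4 clock genes were at an unadjusted p under 0.05, where 5.14% of all genes were. Deviations of same-numbered libraries had correlations of -0.0464, 0.0293 and 0.101 across genes, so the numbers were not taken as pairs, and not every library correlated best with its own number.

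Estimates near 0 changed sign. In the male libraries the log2 fold change was 0.02 for Adcy1, -0.03 for Bhlhe40, 0.07 for Btrc, 0.09 for Clock, -0.08 for Cry1, -0.03 for Gsk3b, -0.04 for Per3 and -0.03 for Sik1. Bhlhe41 was at 0.00 and Nr1d1 at 0.01 with upper-quartile factors, and both at 0.01 at a mean FPKM of at least 5 and with limma on log2(FPKM + 1) or log2(FPKM + 0.1). Cry1 was at 0.00 with limma-voom. Without 1 library each, it lay between -0.24 and 0.07 for Adcy1, -0.09 and 0.11 for Bhlhe40, -0.14 and 0.08 for Bhlhe41, -0.10 and 0.04 for Btrc, -0.09 and 0.06 for Clock and -0.13 and 0.09 for Cry1. It lay between -0.06 and 0.19 for Dbp, -0.17 and 0.46 for Gsk3b, -0.08 and 0.19 for Hlf, -0.08 and 0.05 for Nr1d1, -0.09 and 0.01 for Nr1d2, -0.07 and 0.13 for Per3 and -0.05 and 0.56 for Sik1. Depth limits Aanat, Fbxl21, Npas2 and Timeless.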

Other observations

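The immediate early genes, which answer to light within minutes and share inputs with Per1, showed 4 higher and 3 lower estimates among 7 tested genes of 9, and 0 passed by edgeR. Jun was at 78.5, 62.4 and 44.9 CPM in the Myrf-kd libraries 1 to 3 and at 100, 93.1 and 117 CPM in the WT libraries 1 to 3, with every Myrf-kd library below WT. Of the 7 tested, only Jun had groups without overlap, where 7.5% of all genes were lower without overlap. Junb, Ier2, Dusp1 and Npas4 overlapped between the groups. Fos was at 18.3, 19 and 37.2 CPM in Myrf-kd retinas and at 26.2, 12.9 and 9.09 CPM in WT. Egr1 was at 14.7, 17.9 and 38.2 CPM in Myrf-kd retinas and at 18.4, 23.3 and 13.6 CPM in WT. Both Fos and Egr1 overlapped and were highest in Myrf-kd 3, as were 25.7% of all genes in the fit. Jun, Fos and Egr1 were singled out after their values were seen.

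Cipc, a repressor gene of the CLOCK complex, differed between libraries of both groups, at 40.7, 116 and 36.8 CPM in the Myrf-kd libraries 1 to 3 and at 50.3, 140 and 42.8 CPM in the WT libraries 1 to 3. Creb1 was at 79.3, 24.8 and 9.28 CPM in Myrf-kd retinas and at 82, 43.3 and 10.3 CPM in WT. In each gene the ranking of the libraries by number was alike in Myrf-kd and WT, and both genes were named after their values were seen.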
